A study of Mus musculus with 10 samples.

Results

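The 10 immediate early genes described here (*Fos*, *Fosb*, *Junb*, *Egr1*, *Egr2*, *Npas4*, *Arc*, *Nr4a1*, *Ier2* and *Dusp1*) were chosen by name, as genes that nerve cells switch on by activity. All 10 were found by symbol among the 25232 genes of the deposited table, and all 10 had a level above 0. RNA-seq was performed on the spinal cord of 5 SOD1 G93A and 5 wild type (WT) mice, and the methods narrow the tissue to the lumbar region. The mice of both groups were 90 days old females labelled C57BL/6, and according to the methods the background was C57BL/6J, the line was B6.Cg-Tg(SOD1-G93A)1Gur/J and the WT mice were littermates of the transgenic ones. SOD1 G93A mice carry many copies of a mutated human *SOD1* transgene, which models familial amyotrophic lateral sclerosis and is not limited to motor neurons, while their own *Sod1* gene is kept. The table holds 1 mean per gene over all 10 libraries (the base mean, in counts divided by a size factor of each library), beside the outcome of the authors' own comparison of the groups, which was not used. The levels below therefore describe both genotypes together, with no value per mouse, no spread between mice and no test of SOD1 G93A against WT.

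Immediate early genes are transcribed within minutes of a stimulus, without new protein synthesis, from factors that already sit in the cell. Calcium entry and kinase cascades act on CREB, which binds the cyclic AMP response element (CRE), and on serum response factor, which binds the CArG box together with partners such as Elk1. Their products are transcription factors and short-lived regulators, and in the spinal cord *Fos* is widely used to map neurons that respond to sensory input. Several of them are also induced in glia, in vessels and during handling of tissue, so a level in whole tissue does not name the cells that made it.

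Promoter stretches are shown first, because elements for these factors are a feature that the choice by name did not use. RefSeq windows on GRCm38.p6, from 250 bases before to 50 after the transcription start, were matched by symbol to 7 of the 10 genes and were not used here for *Arc*, *Egr1* and *Ier2*. Each stretch reads 5′ to 3′ on the strand of the gene and ends before the start of its window, which need not be the outermost start of the gene. By RefSeq the stretches of *Egr2*, *Npas4*, *Nr4a1* and *Fosb* lie within the span of the gene, and by GENCODE M21 that of *Dusp1* does. Capitals mark the CRE core (TGACG, or CGTCA where it lies on the other strand), which is also bound by CREB on its own, the full palindromic CRE, the CArG box and the TATA box (TATAAA). The stretch of *Npas4* lies within an annotated GENCODE exon. These are the stretches of *Fos* (chr12:85473751-85473872, + strand), *Egr2* (chr10:67537748-67537828, + strand), *Npas4* (chr19:4990129-4990157, − strand), *Nr4a1* (chr15:101266603-101266820, + strand), *Dusp1* (chr17:26508598-26508673, − strand), *Fosb* (chr7:19310091-19310115, − strand) and *Junb* (chr8:84978840-84978864, − strand).
Fos: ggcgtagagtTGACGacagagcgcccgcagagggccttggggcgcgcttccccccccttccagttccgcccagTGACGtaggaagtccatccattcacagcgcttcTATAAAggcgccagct
Egr2: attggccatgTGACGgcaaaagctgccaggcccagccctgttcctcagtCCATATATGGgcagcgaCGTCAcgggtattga
Npas4: cgttcgaCGTCAcgggaTGACGtcggaag
Nr4a1: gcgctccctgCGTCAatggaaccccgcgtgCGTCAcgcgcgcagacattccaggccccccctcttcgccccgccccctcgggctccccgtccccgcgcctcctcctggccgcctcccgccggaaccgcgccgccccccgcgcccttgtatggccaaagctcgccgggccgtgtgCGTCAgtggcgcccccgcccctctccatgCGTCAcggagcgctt
Dusp1: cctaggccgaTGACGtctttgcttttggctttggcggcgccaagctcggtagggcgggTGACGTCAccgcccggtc
Fosb: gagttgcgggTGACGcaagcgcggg
Junb: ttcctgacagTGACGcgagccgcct

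A CRE core was found in all 7 windowed genes, where 26.4% of the 18645 genes of the table with a window held one. *Nr4a1* had 4, a number reached by 0.349% of those genes, and their first bases lay at −233, −213, −69 and −40 from the start.
*Dusp1* had 3, and 1.53% of the windowed genes had at least as many. Of its cores, 2 overlap in its full CRE at −143. That was the one full CRE (TGACGTCA) among the 7 genes, and 2.56% of all windowed genes held one. *Fos*, *Egr2* and *Npas4* had 2 CRE cores each, and 7.12% of the windowed genes had at least 2. *Fosb* and *Junb* had 1 each, at −60 and −106. Within these windows *Egr2* was the one gene with an exact CArG box, against a share of 1.71% over all windowed genes. It lay at −72 in the window printed, between the 2 CRE cores. Bases more than 250 before the start were not searched, so the other genes may hold a CArG box farther off. Of the 5 annotated starts of *Egr2*, 3 lie close together and share this box, another start has a different CArG box and no CRE core in its window, and the remaining one has neither.

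GC boxes (GGGCGG), which bind Sp1 and are common in promoters, were present in 6 of the 7 genes and in 48.6% of all windowed genes. The EGR site (GCGNGGGCG), the element of the proteins of *Egr1* and *Egr2*, was found in *Fosb* at −50 and in *Nr4a1* at −60, and in 8.35% of all windowed genes. Both of these EGR sites overlap a GC box. No AP-1 site (TGANTCA), the element of the proteins of *Fos* and *Junb*, was matched in any of the 7 windows, and 8.45% of all windowed genes held one. A TATA box lay at −33 in *Fos* and directly at the start in *Junb*, and 9.41% of all windowed genes held one. All motifs but the TATA box were searched on both strands, and a match says only that these letters are present.

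The libraries differed little in relative depth. The lowest base means recurred at exactly 10 values between 0.0868 and 0.119, shared by 716 genes, which is what 1 read in 1 of 10 libraries gives. All 1128 genes below 3 reads were sums of these values to within 1e-09 per read. They correspond to size factors between 0.840 and 1.15, which cannot be tied to single mice or genotypes. The base means of all genes sum to 22158933. From the size factors, *Egr2*, the lowest member by base mean, rests on 327 to 448 reads over the 10 libraries and *Arc*, the highest, on 7215 to 9889. The counting error is therefore at most 5.53% of the base mean of *Egr2* and 1.18% of that of *Arc*. The intervals given below cover this counting error only, and the spread between mice would be added to it. Markers of the labelled tissue and sex were present as pooled levels. Base means were 59050 for *Snap25* of neurons, 319615 for *Mbp* of oligodendrocytes, 56289 for *Gfap* of astrocytes, 735 for *Chat* of motor neurons and 1278 for *Cx3cr1* of microglia. The 6 motor neuron markers ranged from 37.3 for *Mnx1* and 45.6 for *Isl1* to 2316 for *Slc5a7*. Of these, 4 lay above 247, the median of genes with a base mean above 0. Among the 4 microglial markers *Cx3cr1* was the highest and *Aif1*, at 111, the lowest, with 3 above that median. The 6 *Hox* genes *Hoxa9*, *Hoxa10*, *Hoxc9*, *Hoxc10*, *Hoxd9* and *Hoxd10* lay between 152 and 536. The forebrain genes *Emx1* and *Neurod6* were at 0.993 and 78.9. *Xist* was at 10908, and of 4 genes of the Y chromosome 3 were listed at 0 and *Eif2s3y* amounted to 2 reads in all 10 libraries together. Markers of adjoining tissue were present too, with *Prx* of Schwann cells at 484, *Dcn* of fibroblasts at 655, *Scn10a* of sensory ganglia at 86.9 and *Acta1*, *Myh4* and *Ckm* of skeletal muscle at 251, 203 and 108. *Hbb-bs* and *Hba-a1* of blood were listed at 0, and *Alas2* of red cell precursors was at 137. Only uniquely mapped reads were counted, and whether these zeros reflect the blood content of the tissue was not tested. What part any of these cells had in the levels of the immediate early genes was not tested.

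Because longer transcripts give more reads, levels are compared between genes as base mean per kilobase of the longest coding transcript in GENCODE M21. On this scale the 10 genes spanned a 21.4-fold range, and 6 of them lay above 88.0 per kilobase, the median of the 20637 genes with a base mean above 0 and a length. *Arc*, the gene of a capsid-like protein at synapses that helps to withdraw glutamate receptors, was the highest, at 281 per kilobase (95% counting interval 275 to 288). *Arc* lies on chromosome 15 from 74669083 to 74672570, and its base mean was 859. *Dusp1*, the gene of a phosphatase that switches MAP kinases off again, followed at 202 per kilobase (interval 196 to 209) with a base mean of 403. The union of its exons includes those of a transcript with a distant start, and with that length *Dusp1* came to 122 per kilobase, below *Egr1* and *Fos*. *Arc* thus stood 1.39 times above the next gene, beyond the counting error of both, and it was also the highest under the other 3 lengths tried.

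*Egr1*, the zinc finger factor also known as Zif268, reached 181 per kilobase (interval 177 to 185) from a base mean of 811. *Fos*, the partner of JUN proteins in AP-1, reached 174 per kilobase (interval 168 to 181) from a base mean of 368. The difference of 6.46 per kilobase between *Egr1* and *Fos* had a counting interval from −1.04 to 14.0, so these neighbours were not separated on this length. They lay farther apart with the union of exons, at 181 and 156 per kilobase, and with the coding length, at 507 and 322. *Junb*, which encodes an AP-1 subunit, stood at 144 per kilobase (interval 138 to 150) with a base mean of 260. *Nr4a1*, an orphan nuclear receptor also known as Nur77, stood at 109 per kilobase (interval 104 to 113) with a base mean of 278, and it was the last member above the median of all genes. In GENCODE M21, exons of *Junb* share 173 bases with *Prdx2* on the opposite strand, whose base mean was 4274. According to the methods the libraries were made with a stranded kit. The strand setting of the counting is not given in the sources used here, so reads of that stretch cannot be assigned with certainty.

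The other 4 genes lay below the median. *Ier2*, which encodes a small nuclear regulator, was at 71.2 per kilobase (interval 66.6 to 75.9) with a base mean of 108. *Npas4*, a factor induced almost only in neurons and by calcium entry, was at 35.99 per kilobase (interval 33.9 to 38.1) with a base mean of 130. *Fosb*, whose stable splice form builds up under repeated stimulation, was at 13.4 per kilobase (interval 12.1 to 14.7) with a base mean of 50.6. *Egr2*, also known as Krox20 and needed for myelination by Schwann cells, was at 13.1 per kilobase (interval 11.7 to 14.5) with a base mean of 38.9. *Fosb* and *Egr2* differed by 0.254 per kilobase, with a counting interval from −1.65 to 2.16, and were the lowest of the 10 under each exon-based length. *Npas4* lay 2.69-fold above *Fosb*, but with the coding length they were close together, at 54.2 and 49.9 per kilobase.

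**Figure D1:**
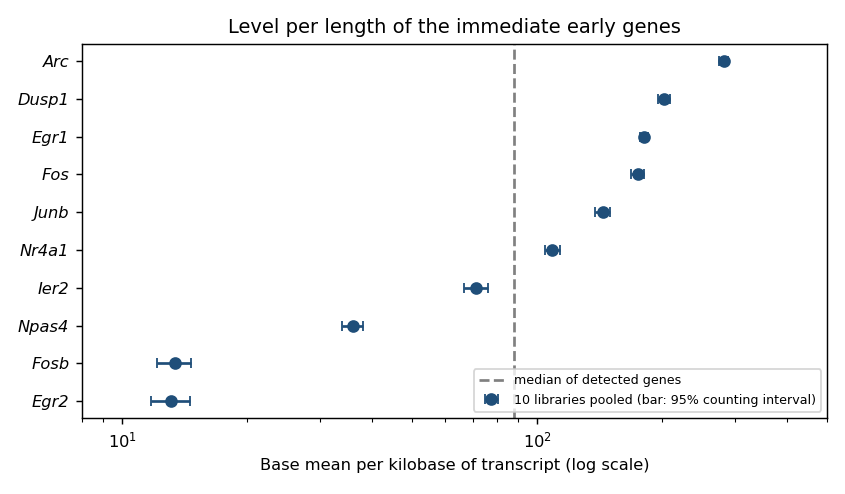
Base mean per kilobase of transcript on a log axis for the 10 immediate early genes, 10 libraries of both genotypes pooled. Points are the pooled means, bars the 95% counting interval without the spread between mice, and the dashed line the median of detected genes (88.0); 6 genes lie above it, and *Fosb* and *Egr2* lie lowest.

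Of the factors with close relatives, *Fos*, *Egr1* and *Nr4a1* were each the highest of their family, and *Fosb* and *Junb* the lowest. In the FOS family, *Fosl1* was at 52.5 and *Fosl2* at 34.7 per kilobase, and *Fos* exceeded *Fosb* 13.0-fold (counting interval 11.8 to 14.4). That ratio depended on the length used and was 6.46 with the coding length and 19.3 with the union of exons. In the JUN family *Jund*, which is known for steady expression, was at 1266 per kilobase and *Jun* at 370. *Jund* thus lay 8.80-fold above *Junb* (interval 8.42 to 9.20), and the ratio was 8.19 with the coding length and 11.2 with the union of exons. Among the EGR genes, *Egr3* was at 25.5 and *Egr4* at 5.90 per kilobase, and *Egr1* exceeded *Egr2* 13.8-fold (interval 12.3 to 15.4). The ratio of *Egr1* to *Egr2* was 18.4 with the coding length and 15.8 with the union of exons. *Nr4a1* exceeded *Nr4a2* 5.70-fold (interval 5.20 to 6.24) and *Nr4a3* 8.22-fold (interval 7.53 to 8.97), while with the coding length these ratios were 4.06 and 4.01.

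*Ier2* was number 3 of 4 in its group, which was formed by gene name and not by shared descent. It lay below *Ier3* at 177 and *Ier5* at 94.0 and above *Ier5l* at 40.5 per kilobase. *Dusp1* and *Dusp6*, the phosphatase gene for ERK kinases, had a ratio of 1.05 with a counting interval from 0.9996 to 1.09. *Dusp6* was the higher of the pair with the coding length and with the union of exons. *Dusp4*, *Dusp5* and *Dusp2* followed at 48.3, 16.4 and 11.8 per kilobase. The corepressor genes *Nab1* and *Nab2*, whose proteins bind EGR factors, were at 270 and 116 per kilobase.

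**Figure D2:**
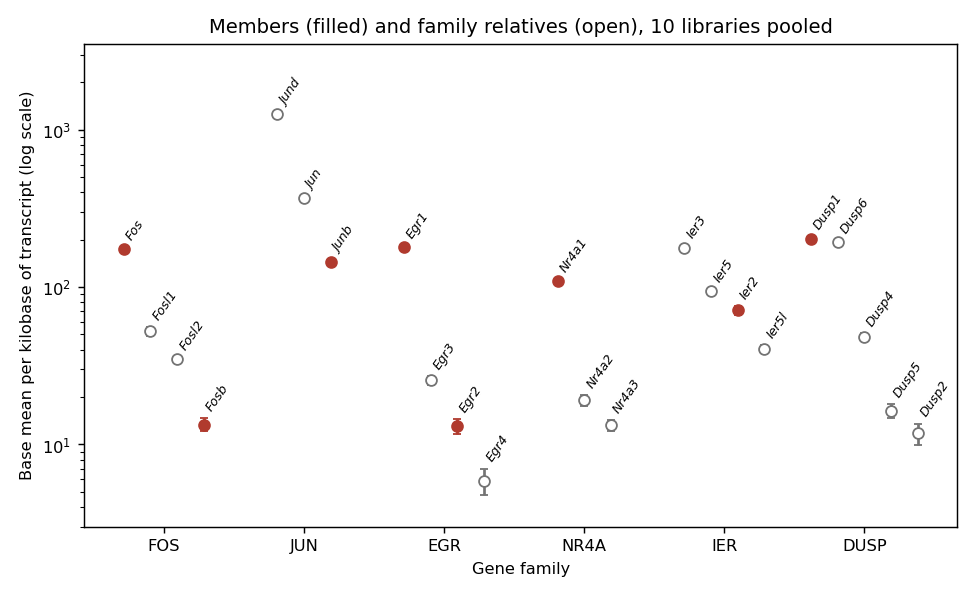
Base mean per kilobase of transcript on a log axis for the genes of 6 families (IER: a group by name), 10 libraries pooled. Filled points are the immediate early genes described here, open points the other genes of each group, and bars the 95% counting interval. *Fos*, *Egr1* and *Nr4a1* lead their families, and *Junb* lies below *Jun* and *Jund*.

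The levels of the immediate early genes overlapped with those of the signalling machinery that acts on them. Their median was 126 per kilobase, beside 234 for the 15 upstream factors and kinases, of which 12 lay above the median of all genes. The kinase gene *Mapk3* was at 2156 per kilobase. *Srf* was at 234, *Creb1* at 133, and the SRF partners *Elk1*, *Elk4* and *Elk3* at 202, 85.4 and 60.8 per kilobase. The 9 AP-1 relatives had a median of 42.9, with 3 above the median of all genes, and their lowest genes by base mean, *Batf* and *Batf2* of lymphoid and myeloid cells, were at 4.83 and 3.38. The 13 genes listed beside the other members, *Nab1* and *Nab2* included, had a median of 40.5. Of these, 5 lay above the median of all genes. The 15 other response genes had a median of 72.4, with 6 above it. *Sgk1*, a kinase gene induced by glucocorticoids, and the clock gene *Per1* led them at 1072 and 305 per kilobase. *Ptgs2*, the gene of inducible cyclooxygenase, and *Myc* had the lowest base means among them and were at 5.66 and 46.9 per kilobase. These medians describe lists of unequal make-up, and no test was made between them.

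Most of the members are compact genes. By the RefSeq annotation of GRCm38.p6 their median span was 3620 bases, against 21746 over 17931 coding genes with a base mean above 0, and all 10 were shorter than that median. *Nr4a1*, with 20894 bases, and *Npas4*, with 19087, came close to it. For *Npas4* this depended on the annotation, as its span in GENCODE M21 is 5962 bases, while that of *Nr4a1* is 20527. *Ier2* and *Junb* have 1 exon in their longest coding transcript and *Egr1* and *Egr2* have 2, while *Npas4* and *Nr4a1* have 8, which is the median of coding genes. In GENCODE M21, 9 of the 10 spans were below the median of coding genes. The exception was *Dusp1*, whose span there is 56539 bases because of a transcript with a distant start, against 2882 bases in RefSeq. The transcripts themselves were not short, with a median of 2759 bases against 2928 for coding genes. *Ier2* (84661331 to 84662852) and *Junb* (84976909 to 84978748) lie 314056 bases apart on chromosome 8.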

How the data were processed

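Spinal cord RNA from 5 mice with the transgene and 5 without it was sequenced, and groups were taken from the sample titles. According to the methods and the submitters' processing notes, the authors filtered reads with Fastp, aligned them to mm10 with HISAT2 2.1.0, counted uniquely mapped reads with featureCounts 2.0.2 and used DESeq2. The deposited base mean is a signal: the mean, made by the authors, of counts divided by size factors over 10 libraries. The other 5 value columns hold the fold change, its error, the Wald statistic and the p-values of the authors' own comparison and were not used, so no test was made.

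Base means were divided by transcript lengths of GENCODE M21 (GRCm38), found for 24693 symbols (97.9%). The methods do not name the gene annotation used for counting, so the exons counted may differ from those behind these lengths. 4 companion symbols were matched through RefSeq synonyms. Size factors were read from base means shared by at least 20 genes, and the counting error was bounded by the largest value of 1 read. Intervals are 95% normal intervals. The reading of size factors and the search for the full CRE were tested on simulated data, and the intervals and the other motifs were not. The members and lists were chosen with earlier results of these data known. All members, each family relative, and the 2 highest and 2 lowest genes by base mean of each companion list were named, beside tissue markers, except for some that are not reported here. The 3 lengths other than the main one, the ranking sets and the motif rules were varied, and the TATA box, the union of exons and RefSeq spans were added after the data were seen. Python 3.11.15, numpy 2.4.6, pandas 2.3.3 and matplotlib 3.10.9 were used.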

Additional observations from a re-analysis of the deposited data

How the results depend on the processing

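No paired analysis was possible because the table holds no values of single libraries, and for the same reason no library could be left out. By base mean, 6 of the 10 genes lay above the median of genes with a base mean above 0, 2 did when genes below a base mean of 10 were left out, and 8 did when all listed genes were ranked. The number above the median per kilobase stayed between 5 and 7 with the coding length, the gene span and the union of exons. The order of *Dusp1* and *Egr1* turned with the coding length and with the union of exons, that of *Nr4a1* and *Ier2* with the coding length and the gene span, and that of *Fosb* and *Egr2* with the union. With the gene span, which counts introns, *Dusp1* fell from number 2 to number 8, at 7.12 per kilobase, *Ier2* also passed *Junb*, and *Npas4* passed *Nr4a1*. With 1 mismatch allowed, 4 of the 7 windowed genes held a full CRE and 5 a CArG box, beside 14.3% and 22.5% of all windowed genes. A TATA box was left in 1 gene when only bases before the start were searched. A geometric mean in place of the median moved the base mean of the members from 269 to 215, of the family relatives from 109 to 118, of the upstream list from 1041 to 1187 and of the other response genes from 198 to 258. The counting intervals limit only what pooled reads show.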
